A study of Mus musculus with 14 samples.

Results

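Mouse hepatic stellate cells (HSCs) that had been kept in valproic acid (VPA) for 64 h were compared with HSCs cultured for the same time without it. The comparison used 6 of the 14 arrays of the study, chosen by their titles: 3 arrays of VPA64h and 3 of Ctrl64h. The cells were freshly isolated from livers of BalbC mice, plated in serum-containing medium, and washed once they had attached. At that wash 2.5 mM VPA was added to the VPA64h cells, and the Ctrl64h cells received none. The other 8 arrays of the study are 3 of HSCs with VPA for 4 h (VPA4h), 3 of HSCs without it for 4 h (Ctrl4h) and 2 of untreated HSCs at 16 h (Ctrl16h). No gene was altered in any group, and all groups came from healthy animals. The question was which genes differ when HSCs go through their first days of culture in the presence of VPA.

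VPA is a short-chain fatty acid used against epilepsy that inhibits class I and class IIa histone deacetylases (HDACs), the enzymes that remove acetyl groups from histone tails. In the healthy liver HSCs store retinyl esters in lipid droplets and divide little. On plastic, as in the injured liver, they turn into myofibroblast-like cells that build a contractile actin apparatus, lay down fibrillar collagen and start to divide.

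RNA was measured on Affymetrix Mouse Gene 1.0 ST arrays, and all levels below are log2 RMA values, so that a difference of 1 is a 2-fold change. Each gene symbol was read from a probe set with exactly 1 symbol, 19938 symbols in all. Differences are VPA64h minus Ctrl64h with the standard error (SE) of the limma fit. The p-values of the limma fit were adjusted by Benjamini-Hochberg over all 23410 probe sets. A probe set was said to have risen or fallen at an adjusted p under 0.05 and a change of at least 2-fold. With 3 arrays a group, the number of arrays limits the precision, and within a probe set an array value says nothing of levels against another probe set.

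The labels call the cells HSCs. Since levels of different probe sets cannot be ranked, the marker genes were compared between the groups only. Of 15 HSC markers 4 passed an adjusted p of 0.05 at any fold upward (beside 12.8% of all probe sets) and 6 downward (beside 11.2%). Their differences ran from -1.17 for Acta2 to 1.53 for Ntm, with a median of -0.10. The mean of these markers was 9.49 to 9.64 in the VPA64h arrays and 9.62 to 9.75 in the Ctrl64h arrays. The matrix proteoglycan gene Dcn, 1 of the markers, was at -0.01. The mean of 19 hepatocyte genes was 5.46, 5.91 and 5.37 in VPA64h arrays, against 5.66, 6.08 and 5.51 in Ctrl64h arrays. For 20 Kupffer cell and macrophage genes it was 5.96, 5.60 and 5.64 in VPA64h arrays, against 6.17, 5.78 and 5.80 in Ctrl64h arrays. The ranges of the groups overlapped for both lists, but between arrays of the same replicate number the VPA64h mean was lower each time. The part of these cells in the changes below was not tested. For 20 sinusoidal endothelial genes the mean was 6.15 in every VPA64h array and 6.26 to 6.53 in the Ctrl64h arrays. Lymphocyte genes stood at 4.69 to 4.77 in VPA64h and 4.70 to 4.84 in Ctrl64h arrays. A lower signal of such a marker in these bulk cultures can come from fewer cells of a type or from less RNA per cell, which cannot be told apart.

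VPA for 64 h changed 502 of the 23410 probe sets (2.14%), of which 234 rose (1.00%) and 268 fell (1.14%). Centring each array on the mean of 18 housekeeping genes instead gave 287 that rose and 218 that fell. Among the genes read from a single-symbol probe set, 136 rose and 236 fell. Far more probe sets moved by less than 2-fold, since 2993 (12.8%) passed an adjusted p of 0.05 upward and 2628 (11.2%) downward whatever their fold. These shares of all probe sets are those beside which each count of list members below is to be read. Large changes were few, with 9 genes up and 21 down by at least 4-fold. Of the 502 probe sets, 500 had VPA64h and Ctrl64h arrays that did not overlap: all 234 that rose and 266 of the 268 that fell. The calls were made on these same arrays and need at least 2-fold, so such separation is largely built in. Here and below it describes called genes and is no further support. The share of all probe sets with groups apart was not counted. Arrays of the same group resembled each other more than arrays of different groups, with a correlation across probe sets of 0.994 within VPA64h, 0.993 to 0.995 within Ctrl64h and 0.978 to 0.986 between them. The median array level was 6.39 to 6.40 in VPA64h and 6.37 in every Ctrl64h array.

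**Figure D1:**
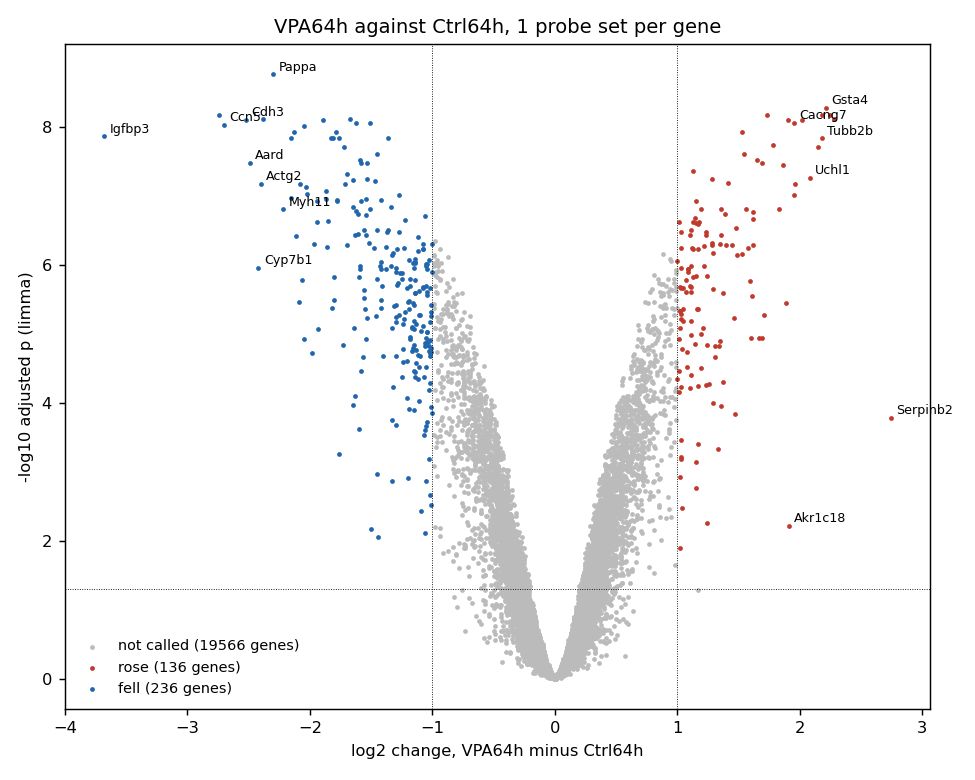
Log2 difference VPA64h minus Ctrl64h (x axis) against minus log10 of the limma adjusted p (y axis), 1 point per gene read from a single-symbol probe set, with the 136 genes that rose and the 236 that fell coloured. The largest fall is Igfbp3 at -3.68 and the largest rise Serpinb2 at 2.74.

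The largest fall of all genes was that of Igfbp3, a carrier protein that binds insulin-like growth factors (IGFs) outside the cell. It read 7.15, 7.77 and 6.95 in VPA64h arrays, against 10.78, 11.46 and 10.67 in Ctrl64h arrays. All 3 VPA64h arrays lay far below the lowest Ctrl64h array, and the difference was -3.68 (SE 0.21, 95% interval -4.13 to -3.23, adjusted p = 1.36e-08), or 12.8-fold. Pappa, the metalloproteinase that cuts Igfbp4 and so frees IGF, read 5.71, 5.93 and 5.89 in VPA64h arrays, against 8.03, 8.16 and 8.22 in Ctrl64h arrays. Its arrays were also clearly apart, with a difference of -2.30 (SE 0.09, adjusted p = 1.71e-09). Igfbp4 itself fell by less (difference -1.11, SE 0.16, adjusted p = 9.28e-05). In the other direction Igf2r, the receptor that carries IGF2 and mannose-6-phosphate-tagged enzymes to the lysosome, read 9.61, 9.17 and 9.67 in VPA64h arrays, against 8.03, 7.59 and 8.05 in Ctrl64h arrays (difference 1.59, SE 0.15, adjusted p = 1.71e-06). Its lowest VPA64h array was above its highest Ctrl64h array. Of 18 measured genes of the IGF axis 1 rose (5.56%, beside 1.00% of all probe sets) and 3 fell (16.7%, beside 1.14%), and the median difference was -0.07 beside 0.00 over all probe sets tested. Since the study had already picked Igfbp3 from these same arrays, the shares of this list are no independent support. The IGF ligand Igf1 was at -0.43 (adjusted p = 0.0064), under the fold limit, and Igf2 was at 0.22 (adjusted p = 0.2).

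Next came the RIKEN transcript 4930426L09Rik (difference -2.74, adjusted p = 6.71e-09), which has no gene name, and then Ccn5, a secreted matricellular protein of the CCN family, with 7.24, 7.71 and 7.01 in VPA64h arrays, against 10.25, 9.93 and 9.86 in Ctrl64h arrays. No array of either group came near the other for Ccn5, and its difference was -2.70 (SE 0.15, adjusted p = 9.32e-09). Cdh3, which encodes the adhesion protein P-cadherin, read 6.94, 7.21 and 6.95 in VPA64h arrays, against 9.35, 9.89 and 9.44 in Ctrl64h arrays (difference -2.52, adjusted p = 7.9e-09). Cdh3 alone fell among 29 cadherin, claudin and junction genes, whose median was -0.02. Cyp7b1, an oxysterol hydroxylase, read 5.0, 5.27 and 5.27 in VPA64h arrays, against 7.83, 7.41 and 7.54 in Ctrl64h arrays (difference -2.42, adjusted p = 1.1e-06). Casq2, a calcium-binding protein of the muscle sarcoplasmic reticulum, read 4.73, 4.83 and 4.73 in VPA64h arrays, against 7.08, 7.06 and 6.55 in Ctrl64h arrays (difference -2.13). For both genes the VPA64h arrays were close together and below all Ctrl64h arrays. Aard (-2.49), Rcbtb2 (-2.15) and the orphan receptor gene Gpr176 (-2.08) completed the falls of this size outside the groups below, with adjusted p-values of 3.3e-08 for Aard, 1.45e-08 for Rcbtb2 and 6.68e-08 for Gpr176. Tmem204, a transmembrane protein of cell junctions, read 8.51, 8.88 and 8.48 in VPA64h arrays, against 10.39, 10.69 and 10.41 in Ctrl64h arrays (difference -1.87, SE 0.13, adjusted p = 8.46e-08), again with no overlap. In the study, qPCR on repeat cultures did not bear out the array changes of Tmem204 and Cyp7b1. It did bear out those of Igfbp3, Uchl1, Aplp1, Plat and Ptprn. In HSCs from mice given carbon tetrachloride, the VPA effect matched for Igfbp3 and not for the others.

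**Figure D2:**
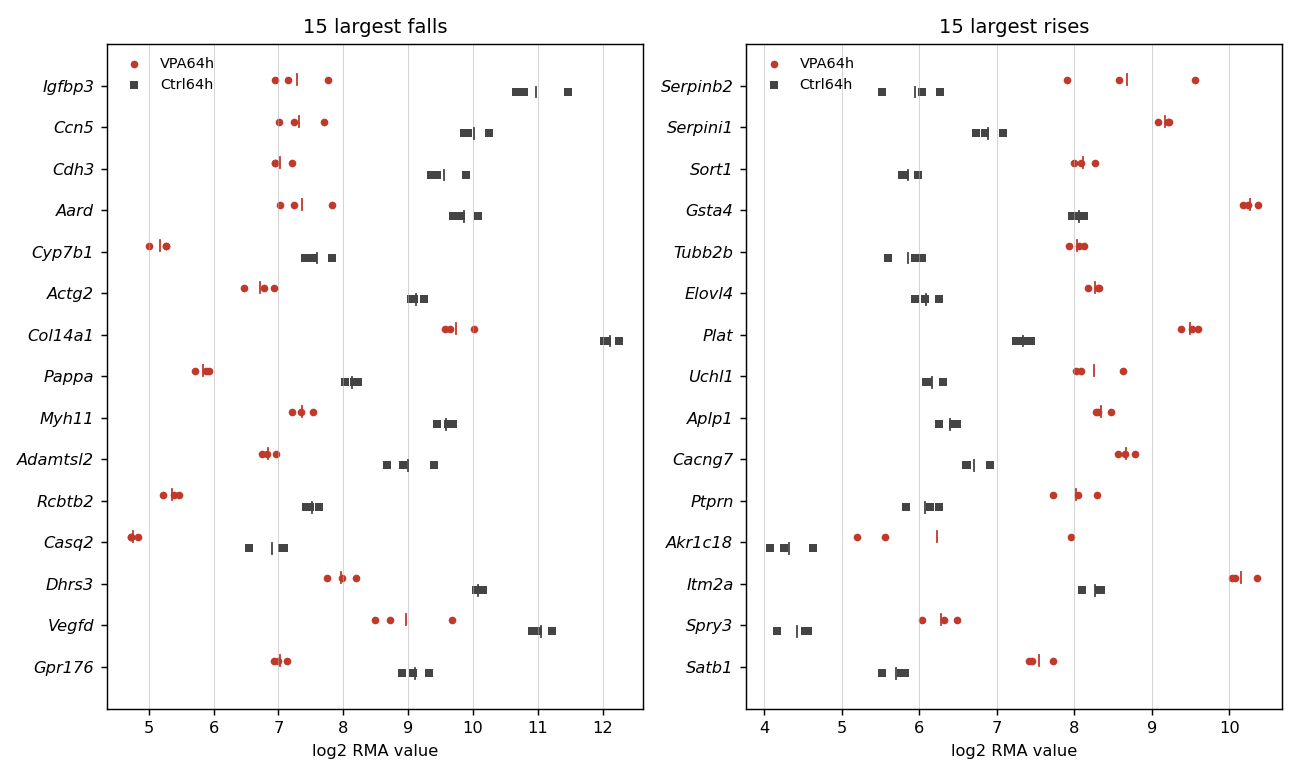
Levels of the 15 named genes with the largest rises and the 15 with the largest falls, without clone names and pseudogenes, on the log2 RMA scale (x axis), with circles for the 3 VPA64h arrays, squares for the 3 Ctrl64h arrays and short lines for the means. The 30 genes were picked among called genes whose groups do not overlap. For Akr1c18 1 VPA64h array lies at 7.96, far from 5.56 and 5.19.

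Contractile genes of smooth muscle were next among the large falls. Actg2, the gamma actin of enteric smooth muscle, read 6.47, 6.78 and 6.93 in VPA64h arrays, against 9.24, 9.04 and 9.09 in Ctrl64h arrays (difference -2.40, SE 0.16, adjusted p = 6.68e-08). Myh11, the smooth muscle myosin heavy chain, read 7.54, 7.35 and 7.21 in VPA64h arrays, against 9.69, 9.62 and 9.44 in Ctrl64h arrays (difference -2.22, adjusted p = 1.55e-07). Acta2, which encodes alpha smooth muscle actin and is the usual marker of HSC activation, read 11.75, 11.98 and 11.68 in VPA64h arrays, against 12.95, 12.99 and 12.97 in Ctrl64h arrays. The fall of Acta2 was the smallest of the 3 (difference -1.17, SE 0.13, adjusted p = 7.96e-06), and the arrays of the groups were apart for each gene. These were the 3 of 20 listed contractile genes that fell (15%, beside 1.14% of all probe sets), and 11 were lower at an adjusted p under 0.05 at any fold. No member rose by the limma test, and 1 was higher at an unadjusted p under 0.05. Among those that missed the fold limit were the myosin kinase Mylk (-0.91, adjusted p = 5.07e-06) and the intermediate filament protein desmin, Des (-0.70, adjusted p = 1.2e-05). Tagln, an actin-binding protein of the same cells, read 12.97, 13.01 and 13.12 in VPA64h arrays, against 12.77, 12.74 and 12.75 in Ctrl64h arrays (difference 0.28, adjusted p = 0.0527). For the calponin gene Cnn1 the arrays of the groups overlapped (difference -0.11, adjusted p = 0.714). The median difference of the 20 genes was -0.38. In the list of Hippo and serum response factor targets 1 of 23 genes fell, Tgfb1i1 (Hic-5), a focal adhesion adaptor (difference -1.34, adjusted p = 1.44e-07).

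Fibrillar matrix genes did not move as a block. Col3a1, the chain of type III collagen, read 10.02, 10.72 and 10.04 in VPA64h arrays, against 12.09, 12.50 and 12.36 in Ctrl64h arrays (difference -2.06, SE 0.19, adjusted p = 1.68e-06). Col14a1, a fibril-associated collagen, read 9.64, 10.01 and 9.57 in VPA64h arrays, against 12.02, 12.25 and 12.07 in Ctrl64h arrays (difference -2.38, SE 0.12, adjusted p = 7.71e-09). Neither gene had any overlap between groups, and these 2 were the collagens that fell, of 22 measured. Col1a1, the main chain of type I collagen, read 11.28, 11.30 and 11.38 in VPA64h arrays, against 12.04, 11.97 and 12 in Ctrl64h arrays. Its arrays were apart too, but the difference of -0.69 (SE 0.18, adjusted p = 0.00927) was below the fold limit. The median of the 22 collagen genes was -0.13, and at any fold 7 passed an adjusted p of 0.05 downward and 1 upward.

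Of 20 genes of collagen modification and cross-linking 11 were lower at an adjusted p under 0.05 at any fold (beside 11.2% of all probe sets). Their median was -0.41. The lysyl oxidase gene Lox, whose product cross-links collagen and elastin, read 9.15, 9.21 and 9.34 in VPA64h arrays, against 11.04, 10.86 and 10.99 in Ctrl64h arrays (difference -1.73, SE 0.20, adjusted p = 1.43e-05). P4ha3, a prolyl hydroxylase subunit, read 5.72, 6.07 and 6.22 in VPA64h arrays, against 7.19, 7.15 and 7.22 in Ctrl64h arrays (difference -1.18, adjusted p = 1.11e-05). The VPA64h arrays of both genes lay below every Ctrl64h array, and these 2 were the members that passed the fold limit. Serpinh1, the collagen chaperone Hsp47, was at -0.79 (adjusted p = 3.6e-05) and the lysyl hydroxylase Plod2 at -0.70 (adjusted p = 8.3e-05).

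Of 33 matrix glycoproteins and elastic fibre proteins 1 rose and 2 fell, with a median of -0.05. Both that fell belong to elastic fibres. Emilin1 read 8.68, 9.05 and 8.81 in VPA64h arrays, against 10.28, 10.41 and 10.25 in Ctrl64h arrays (difference -1.47, adjusted p = 6e-08). Fbln5 (fibulin 5) read 9.87, 10.06 and 9.58 in VPA64h arrays, against 11.24, 11.36 and 11.16 in Ctrl64h arrays (difference -1.42, adjusted p = 9.02e-07). The thrombospondin gene Thbs2 went the other way, with 9.84, 9.73 and 9.80 in VPA64h arrays, against 8.81, 8.87 and 8.63 in Ctrl64h arrays (difference 1.03, adjusted p = 2.13e-06). The groups did not overlap for these genes, and Thbs2 lay close to the fold limit, at 0.96 without replicate 3 of Ctrl64h. Itga8, the integrin chain that pairs with beta 1 and binds such matrix proteins, was the one of 26 integrin and focal adhesion genes that fell (difference -1.53, adjusted p = 5.7e-08).

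Proteases of the matrix were among the falls. Of 21 metalloproteinase, ADAMTS and TIMP genes 3 fell (14.3%, beside 1.14% of all probe sets), and at any fold 7 passed an adjusted p of 0.05 downward and 2 upward, with a median of -0.34. Adamts12, a secreted metalloproteinase, read 8.51, 8.16 and 8.33 in VPA64h arrays, against 10.23, 9.99 and 10.26 in Ctrl64h arrays (difference -1.83, adjusted p = 1.45e-08). Adamts5, the aggrecan-cleaving enzyme, read 9.44, 9.60 and 9.14 in VPA64h arrays, against 10.83, 11.05 and 10.90 in Ctrl64h arrays (difference -1.54, adjusted p = 3.7e-07). Mmp23, a membrane-anchored metalloproteinase, fell by 1.58 (adjusted p = 1.2e-07). Each of the 3 genes had VPA64h arrays below all Ctrl64h arrays. Among those short of the fold limit were Mmp14 (-0.79, adjusted p = 1.5e-05) and Timp2 (-0.72, adjusted p = 7.7e-06), which code for the membrane activator of pro-gelatinase A and its partner inhibitor. Ctsk, the collagen-degrading cathepsin of the lysosome, read 7.26, 6.81 and 6.51 in VPA64h arrays, against 8.98, 8.56 and 8.61 in Ctrl64h arrays (difference -1.86, adjusted p = 5.52e-07).

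Genes of cell division were lower with VPA. All 35 listed genes of G2/M and mitosis were lower at an adjusted p under 0.05 at any fold (beside 11.2% of all probe sets), 16 of them by at least 2-fold (45.7%, beside 1.14%), and the median difference was -0.95. No member was higher at an unadjusted p under 0.05 by limma. Ccna2, the cyclin A of S phase and G2, read 5.83, 6.06 and 6.06 in VPA64h arrays, against 7.88, 7.92 and 8.29 in Ctrl64h arrays (difference -2.05, SE 0.11, adjusted p = 9.76e-09). Nuf2, a kinetochore protein, read 5.27, 5.71 and 5.96 in VPA64h arrays, against 7.72, 7.47 and 7.80 in Ctrl64h arrays (difference -2.02, adjusted p = 9.32e-08). Top2a, the topoisomerase of dividing cells, read 6.49, 6.55 and 6.59 in VPA64h arrays, against 8.08, 8.37 and 8.19 in Ctrl64h arrays (difference -1.67, adjusted p = 7.71e-09). For these and the other 13 genes, among them the checkpoint kinase Bub1 (-1.81), the mitotic kinesin Kif11 (-1.53), the hyaluronan receptor Hmmr (-1.65) and the proliferation antigen Mki67 (-1.19), the groups did not overlap. Values short of the fold limit included the mitotic kinase Cdk1 (-0.92) and the transcription factor Foxm1 (-0.87).

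All 35 listed genes of G1/S and DNA replication had a lower mean with VPA as well, 31 of them at an adjusted p under 0.05, with a median of -0.67. Of these, 5 fell by at least 2-fold, and 3 did so without replicate 1 of Ctrl64h. Ccne2, the cyclin E that drives entry into S phase, read 4.70, 4.76 and 4.72 in VPA64h arrays, against 6.60, 6.50 and 6.75 in Ctrl64h arrays (difference -1.89, SE 0.10, adjusted p = 7.82e-09). Rrm2, the ribonucleotide reductase subunit, read 7.13, 7.10 and 6.81 in VPA64h arrays, against 8.43, 8.46 and 8.71 in Ctrl64h arrays (difference -1.52, adjusted p = 4.73e-07). Mcm5, a part of the replicative helicase, read 6.87, 7.23 and 7.09 in VPA64h arrays, against 8.54, 8.39 and 8.54 in Ctrl64h arrays (difference -1.42, adjusted p = 1.13e-07). The arrays of the groups were apart for each, while Pole (-1.04) and Cdc45 (-1.0) lay at the fold limit. Pole was at -0.92 without replicate 2 of VPA64h and -0.99 without replicate 1 of Ctrl64h, and Cdc45 at -0.98 without either of these arrays and at -0.99 without replicate 3 of VPA64h or replicate 2 of Ctrl64h. CDK inhibitors, D-type cyclins and p53 targets showed no such downward shift, with a median of 0.05 over 23 genes. Cdkn1a had only a probe set shared with other genes and Trp53 had none, so neither was among the 23. At an adjusted p under 0.05 at any fold, 8 were higher (beside 12.8% of all probe sets) and 2 lower (beside 11.2%). The one that fell was Gadd45g, a stress-induced gene, at 10.52, 10.52 and 9.60 in VPA64h arrays, against 11.48, 11.43 and 11.31 in Ctrl64h arrays (difference -1.20, SE 0.23, adjusted p = 0.00122), and it was at -0.89 without replicate 3 of VPA64h. Without replicate 1 of VPA64h 2 members of this list fell, and without its replicate 3 none did (0). The CDK inhibitor gene Cdkn1c was at 0.61 (adjusted p = 0.000132).

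Promoters of G2/M genes are known for CCAAT boxes, bound by NF-Y, and for the cell cycle homology region TTTGAA. Both patterns were searched on both strands, together with GGGCGG, TTCAGCACC and TGACGTCA, in the 250 bases before each gene start of RefSeq (build GRCm38.p6). Of the 16 G2/M genes that fell 12 had an entry, with 14 windows, of which 12 (85.7%) held CCAAT, 8 (57.1%) TTTGAA and 11 (78.6%) the GC box GGGCGG. Of all 32851 windows 33.8% held CCAAT, 16% TTTGAA and 32.7% GGGCGG, and of the 19177 windows of genes read on the array 34.5% held CCAAT, 13.4% TTTGAA and 45.5% GGGCGG. All 29 listed G2/M genes with an entry, whether past the fold limit or not, had 31 windows, of which 74.2% held CCAAT, 38.7% TTTGAA and 71% GGGCGG. The 4 windows below are those of genes that fell and show how the patterns are arranged. Capitals mark CCAAT or its reverse complement ATTGG, and TTTGAA or its reverse complement TTCAAA; the sequences are from RefSeq, 5′ to 3′ on the strand of the gene. They lie at chr11:99024190-99024439 (minus strand) for Top2a, chr11:40733438-40733687 (minus strand) for Hmmr, chr2:127831860-127832109 (minus strand) for Bub1 and chr19:37376132-37376381 (plus strand) for Kif11.
Top2a: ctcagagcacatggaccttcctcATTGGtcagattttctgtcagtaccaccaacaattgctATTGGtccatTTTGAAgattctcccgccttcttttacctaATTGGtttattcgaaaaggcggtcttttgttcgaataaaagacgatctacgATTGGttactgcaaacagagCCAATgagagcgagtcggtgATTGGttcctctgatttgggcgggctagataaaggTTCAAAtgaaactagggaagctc
Hmmr: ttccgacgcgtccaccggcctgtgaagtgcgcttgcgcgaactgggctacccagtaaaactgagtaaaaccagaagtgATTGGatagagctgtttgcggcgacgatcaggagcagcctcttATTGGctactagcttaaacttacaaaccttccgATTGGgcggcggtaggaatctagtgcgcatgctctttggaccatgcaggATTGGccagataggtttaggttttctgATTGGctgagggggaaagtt
Bub1: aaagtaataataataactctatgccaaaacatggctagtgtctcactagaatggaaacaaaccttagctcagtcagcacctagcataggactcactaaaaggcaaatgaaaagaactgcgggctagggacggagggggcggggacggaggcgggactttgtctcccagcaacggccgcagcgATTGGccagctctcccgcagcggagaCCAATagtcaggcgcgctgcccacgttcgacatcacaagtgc
Kif11: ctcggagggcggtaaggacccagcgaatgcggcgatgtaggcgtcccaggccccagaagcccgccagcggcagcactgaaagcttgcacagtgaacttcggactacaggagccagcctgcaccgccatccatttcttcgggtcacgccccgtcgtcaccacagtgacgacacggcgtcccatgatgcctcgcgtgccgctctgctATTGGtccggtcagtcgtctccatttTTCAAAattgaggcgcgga
The window of Top2a held 8 matches, that of Hmmr 5, and those of Bub1 and Kif11 held 2 each. The matches are letters in a window and were not measured as sites here.

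Of 39 measured genes of the PDGF, VEGF, FGF and EGF systems 3 fell (7.69%, beside 1.14% of all probe sets), and at any fold 12 passed an adjusted p of 0.05 downward and 3 upward. Vegfd, a lymphangiogenic factor, read 8.72, 9.67 and 8.49 in VPA64h arrays, against 10.91, 11.22 and 11.01 in Ctrl64h arrays (difference -2.09, SE 0.21, adjusted p = 3.45e-06). Vegfc, of the same subfamily, read 8.63, 8.81 and 8.39 in VPA64h arrays, against 9.85, 10.01 and 9.82 in Ctrl64h arrays (difference -1.29, adjusted p = 5.79e-07). Angpt1, the ligand of the endothelial receptor Tie2, read 5.42, 5.75 and 5.13 in VPA64h arrays, against 6.84, 7.33 and 6.81 in Ctrl64h arrays (difference -1.56, adjusted p = 2.34e-06). For the 3 genes every VPA64h array was below every Ctrl64h array, with replicate 2 the highest array of both groups each time. The median of the 39 genes was -0.20.

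Of 37 genes of TGF-beta and BMP signalling 1 rose (2.7%, beside 1.00% of all probe sets) and 2 fell (5.41%, beside 1.14%), with a median of -0.06. Id3, a target of BMP signalling, read 8.68, 9.22 and 8.73 in VPA64h arrays, against 10.06, 10.34 and 9.99 in Ctrl64h arrays (difference -1.25, adjusted p = 4.21e-05). The ligand Tgfb3 read 10.18, 10.58 and 9.85 in VPA64h arrays, against 11.42, 11.51 and 11.30 in Ctrl64h arrays (difference -1.21, adjusted p = 2.5e-05). The ligand Bmp6 read 7.33, 7.52 and 7.17 in VPA64h arrays, against 6.34, 6.26 and 6.32 in Ctrl64h arrays (difference 1.03, SE 0.18, adjusted p = 0.000605). The arrays did not overlap for any of these genes, and Bmp6 was at 0.94 without replicate 2 of VPA64h, which left 0 rises in the list. In the Wnt, Notch and Hedgehog list 1 of 40 genes rose, Hhip, described among the quiescence genes, and the median was 0.14.

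Among the rises were genes better known from neurons and neuroendocrine cells. Of 53 such genes 10 rose (18.9%, beside 1.00% of all probe sets), while the median of the list was 0.07. The study had already picked Uchl1, Aplp1 and Ptprn from these same arrays as genes that rise with VPA. The share of the list is thus a description and no independent support. No member of the list fell past both limits. At an adjusted p under 0.05 at any fold, 13 were higher (beside 12.8% of all probe sets) and 4 lower (beside 11.2%), with 6 lower at an unadjusted p under 0.05. Uchl1, a deubiquitinating enzyme abundant in neurons, read 8.02, 8.09 and 8.63 in VPA64h arrays, against 6.09, 6.11 and 6.30 in Ctrl64h arrays (difference 2.08, SE 0.14, adjusted p = 5.49e-08). Aplp1, a relative of the amyloid precursor protein, read 8.30, 8.28 and 8.47 in VPA64h arrays, against 6.48, 6.44 and 6.26 in Ctrl64h arrays (difference 1.96, adjusted p = 6.68e-08). Ptprn, a membrane protein of secretory granules, read 7.72, 8.05 and 8.29 in VPA64h arrays, against 6.25, 5.83 and 6.14 in Ctrl64h arrays (difference 1.95, adjusted p = 9.75e-08). No array of VPA64h overlapped with Ctrl64h for any of the 10 genes.

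Several of these genes serve microtubules or vesicle transport. The microtubule-associated proteins were represented by Map1b (1.67), Map2 (1.28) and Mapt (1.18), and the neuronal kinesins by Kif1a (1.39) and Kif5c (1.13). Map2 read 9.16, 9.17 and 9.14 in VPA64h arrays, against 7.84, 7.78 and 8.01 in Ctrl64h arrays (adjusted p = 5.7e-08). The beta-tubulin isotype Tubb2b, the one of 12 tubulin genes that rose, read 7.93, 8.13 and 8.06 in VPA64h arrays, against 5.59, 6.04 and 5.94 in Ctrl64h arrays (difference 2.18, SE 0.13, adjusted p = 1.45e-08). Its VPA64h arrays were all far above the Ctrl64h arrays. The synaptic vesicle proteins Syn1 and Syt11 rose by 1.46 for Syn1 (adjusted p = 5.87e-06) and by 1.69 for Syt11 (adjusted p = 3.33e-08). Values that did not pass the test included those of the SNARE gene Snap25 (0.09, adjusted p = 0.645) and the granule protein gene Chga (-0.05, adjusted p = 0.788). The auxiliary AMPA receptor subunit gene Cacng7, outside the list, read 8.65, 8.78 and 8.56 in VPA64h arrays, against 6.60, 6.62 and 6.91 in Ctrl64h arrays (difference 1.95, adjusted p = 8.73e-09).

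The windows before the starts of the neuronal genes that rose, 11 windows of 9 genes, were searched for the same letters. None held CCAAT (beside 34.5% of the windows of genes read on the array), 2 (18.2%, beside 13.4%) held TTTGAA, and 5 (45.5%, the same share as on the array) held GGGCGG. The window of 1 gene (9.09%, beside 0.334%) held TTCAGCACC, the first letters of the RE1 element to which the repressor REST binds. The palindrome TGACGTCA, the cAMP response element, was in 2 (18.2%), beside 2.02% of the windows of genes read on the array and 1.55% of all windows. All 39 listed neuronal genes with an entry had 51 windows, of which 31.4% held CCAAT, 3.92% TTCAGCACC and 9.8% TGACGTCA. The windows of Syn1, at chrX:20920919-20921168 (minus strand, 2 matches), and Kif5c, at chr2:49619036-49619285 (plus strand, 1 match), are shown for where these patterns lie, with TTCAGCACC and TGACGTCA in capitals (RefSeq, GRCm38.p6).
Syn1: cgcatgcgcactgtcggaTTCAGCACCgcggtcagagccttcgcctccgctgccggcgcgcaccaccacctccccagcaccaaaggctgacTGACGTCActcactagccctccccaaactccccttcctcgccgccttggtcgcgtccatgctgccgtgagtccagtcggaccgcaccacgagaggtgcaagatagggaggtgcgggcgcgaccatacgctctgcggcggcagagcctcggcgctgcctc
Kif5c: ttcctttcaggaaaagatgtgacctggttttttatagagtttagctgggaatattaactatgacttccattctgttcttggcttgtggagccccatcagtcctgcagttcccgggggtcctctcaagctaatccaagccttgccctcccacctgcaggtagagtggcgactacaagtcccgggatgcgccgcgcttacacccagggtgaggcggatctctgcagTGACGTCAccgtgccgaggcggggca
Both windows hold TGACGTCA and only that of Syn1 holds TTCAGCACC, which is a description of the letters and not of binding.

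The plasminogen system showed rises of both an activator and its inhibitors. Plat, the tissue plasminogen activator, read 9.59, 9.52 and 9.37 in VPA64h arrays, against 7.34, 7.25 and 7.44 in Ctrl64h arrays (difference 2.15, SE 0.13, adjusted p = 1.93e-08). Serpini1 (neuroserpin), which inhibits it, read 9.21, 9.22 and 9.08 in VPA64h arrays, against 7.08, 6.73 and 6.85 in Ctrl64h arrays (difference 2.28, SE 0.12, adjusted p = 7.71e-09). Serpinb2 (plasminogen activator inhibitor 2) had the largest rise of all, with 8.58, 7.91 and 9.55 in VPA64h arrays, against 6.27, 5.52 and 6.04 in Ctrl64h arrays. The VPA64h arrays of Serpinb2 were widely spread but all above Ctrl64h, and the difference of 2.74 had the large SE of 0.41 (adjusted p = 0.000165). Serpina3n, an acute-phase protease inhibitor, fell (difference -1.54, adjusted p = 1.2e-05), and the urokinase gene Plau was at -0.57 (adjusted p = 0.032). Of the 10 plasminogen activators and serpins listed, 2 rose and 1 fell, and the median was -0.41. Plat, 1 of the 2 that rose, had already been picked by the study from these same arrays.

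Sort1 (sortilin), a receptor that sorts cargo from the Golgi to lysosomes, read 8.08, 8.26 and 7.99 in VPA64h arrays, against 5.98, 5.78 and 5.81 in Ctrl64h arrays (difference 2.25, SE 0.11, adjusted p = 6.71e-09). It was the one of 38 lysosome, sortilin family and V-ATPase genes that rose, and Ctsk and Gusb fell, Ctsk alone without replicate 2 of VPA64h (Gusb then at -0.99). The median of that list was 0.19, with 13 genes higher at an adjusted p under 0.05 at any fold, among them the lysosomal thioesterase Ppt1 (0.92) and the peptidase Tpp1 (0.68). Gsta4, a glutathione transferase for lipid aldehydes, read 10.18, 10.37 and 10.24 in VPA64h arrays, against 7.97, 8.13 and 8.06 in Ctrl64h arrays (difference 2.21, SE 0.10, adjusted p = 5.26e-09). In the same antioxidant list of 32 genes the glutathione peroxidases Gpx7 (-1.60, adjusted p = 1.48e-06) and Gpx1 (-1.45, adjusted p = 1.61e-06) fell, and without replicate 2 of VPA64h 2 members rose. Elovl4, the elongase of very long fatty acids, read 8.31, 8.17 and 8.32 in VPA64h arrays, against 5.94, 6.07 and 6.25 in Ctrl64h arrays (difference 2.18, adjusted p = 6.71e-09). The arrays were apart for Sort1, Gsta4 and Elovl4, with little spread inside each group.

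The chromatin organiser Satb1 read 7.46, 7.72 and 7.42 in VPA64h arrays, against 5.52, 5.82 and 5.77 in Ctrl64h arrays (difference 1.83, adjusted p = 1.55e-07). The membrane protein gene Itm2a (1.90, adjusted p = 7.9e-09) and the Sprouty family gene Spry3 (1.86, adjusted p = 3.53e-08) rose to a similar extent. Akr1c18, a steroid dehydrogenase, read 5.56, 5.19 and 7.96 in VPA64h arrays, against 4.26, 4.08 and 4.63 in Ctrl64h arrays (difference 1.91, SE 0.46, adjusted p = 0.00606). All VPA64h arrays of Akr1c18 were above Ctrl64h, but replicate 3 stood far above the others, and without it the difference was 1.05 (adjusted p = 0.000448).

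**Figure D3:**
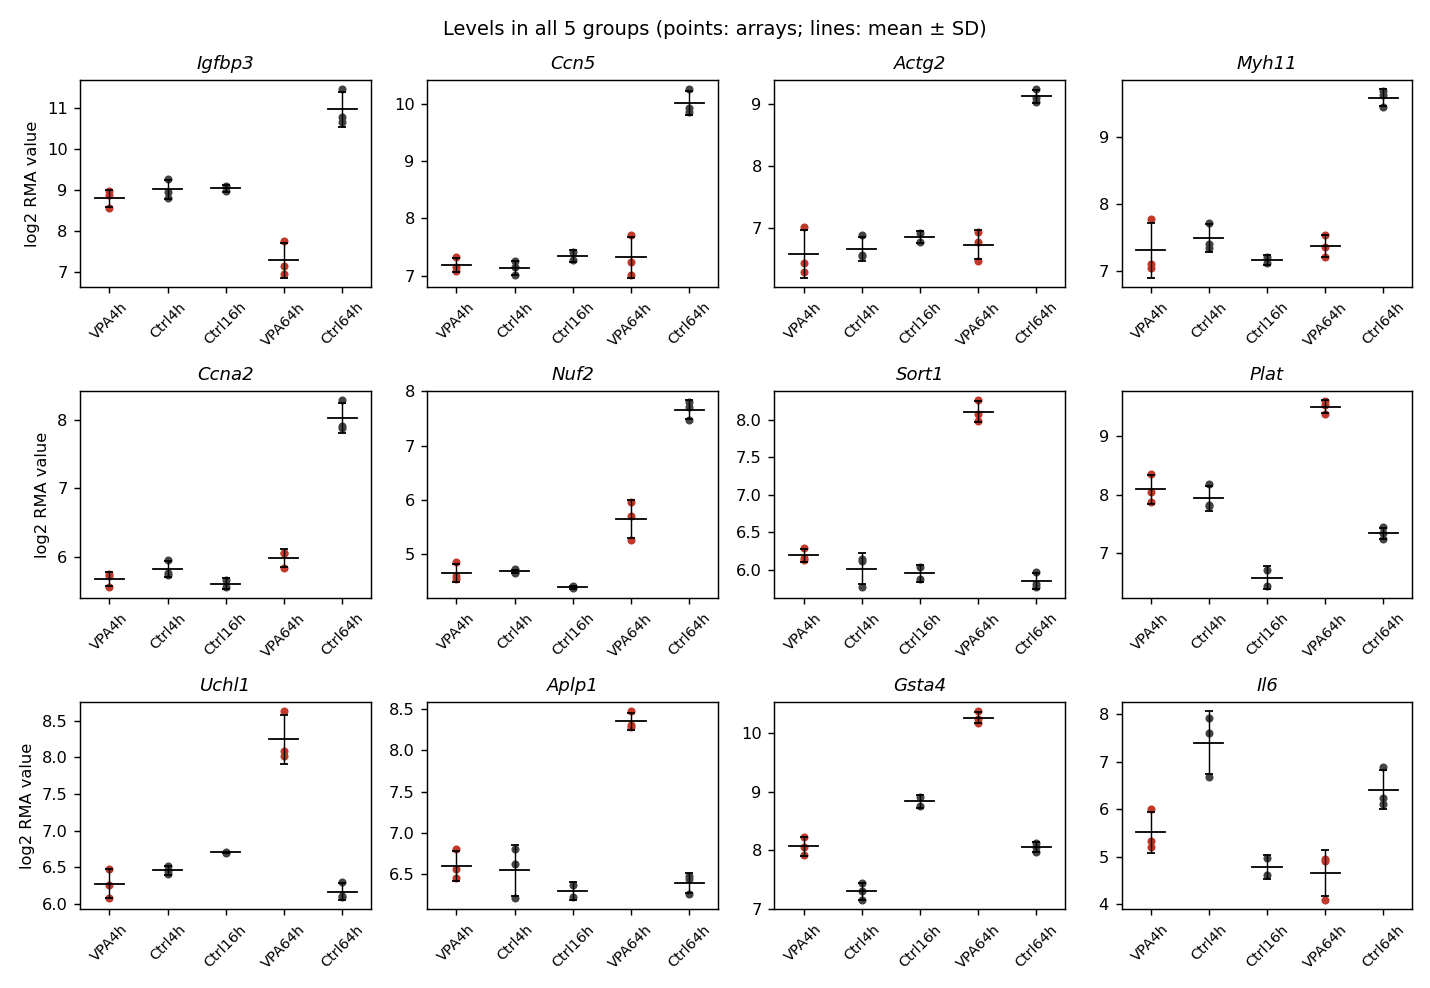
Log2 levels of 12 genes in each group, points for single arrays and bars for the mean ± SD, with VPA4h (n = 3), Ctrl4h (n = 3), Ctrl16h (n = 2), VPA64h (n = 3) and Ctrl64h (n = 3) from left to right. Igfbp3, Ccn5, Actg2, Myh11, Ccna2 and Nuf2 are lower and Sort1, Plat, Uchl1, Aplp1 and Gsta4 higher in VPA64h than in Ctrl64h, while Il6 is lower with VPA at both times.

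Markers of the quiescent HSC went both ways, with 3 of 24 up regulated, 1 down regulated and a median of -0.11. Ntm (neurotrimin), a neural adhesion protein, read 7.24, 7.09 and 7.11 in VPA64h arrays, against 5.83, 5.66 and 5.38 in Ctrl64h arrays (difference 1.53, SE 0.13, adjusted p = 7.02e-07). Hhip, an inhibitor of Hedgehog ligands, read 8.21, 7.93 and 8.16 in VPA64h arrays, against 6.04, 6.76 and 6.70 in Ctrl64h arrays (difference 1.60, adjusted p = 1.15e-05). Vipr1, a receptor for vasoactive intestinal peptide, read 7.92, 7.80 and 7.67 in VPA64h arrays, against 6.86, 6.94 and 6.50 in Ctrl64h arrays (difference 1.03, adjusted p = 5.23e-06). All VPA64h arrays of these genes were above the Ctrl64h arrays, and Vipr1 lay just past the fold limit, at 0.97 without replicate 1 of VPA64h and 0.90 without replicate 3 of Ctrl64h. Adamtsl2, a fibrillin-binding glycoprotein, was the exception, at 6.83, 6.96 and 6.74 in VPA64h arrays, against 8.68, 9.40 and 8.92 in Ctrl64h arrays (difference -2.15, adjusted p = 1.06e-07). The endothelin receptor gene Ednrb (-0.99), the transcription factor gene Hand2 (-0.95), the semaphorin receptor gene Plxnc1 (0.80) and the neurotrophin receptor gene Ngfr (0.71) had adjusted p-values from 1.2e-05 to 0.00029 and missed the fold limit. The list had 3 falls without replicate 2 of VPA64h or replicate 1 of Ctrl64h, and 2 without replicate 3 of Ctrl64h.

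Retinoid and lipid droplet genes were as mixed, with 1 of 28 up, 3 down and a median of -0.01. Dhrs3, which reduces retinaldehyde to retinol, read 7.98, 7.75 and 8.19 in VPA64h arrays, against 10.15, 10.04 and 10.05 in Ctrl64h arrays (difference -2.11, SE 0.17, adjusted p = 3.83e-07). Aldh1a2, which makes retinoic acid, read 7.53, 7.80 and 8.39 in VPA64h arrays, against 8.79, 8.79 and 9.19 in Ctrl64h arrays (difference -1.01, SE 0.22, adjusted p = 0.003). Rdh12, a retinol dehydrogenase, read 6.22, 6.42 and 6.72 in VPA64h arrays, against 5.48, 5.34 and 5.41 in Ctrl64h arrays (difference 1.04, adjusted p = 1.64e-05). The groups did not overlap, though Aldh1a2 and Rdh12 lay at the fold limit. Aldh1a2 was at -0.83 without replicate 1 of VPA64h, -0.96 without its replicate 2 and -0.88 without replicate 3 of Ctrl64h, and Rdh12 at 0.91 without replicate 3 of VPA64h. Mgll, a monoglyceride lipase, fell by 1.30 (adjusted p = 1.25e-06). Lrat, the enzyme that esterifies retinol in HSCs, read 7.85, 7.98 and 7.90 in VPA64h arrays, against 7.54, 7.96 and 7.48 in Ctrl64h arrays, with overlapping groups (difference 0.25, adjusted p = 0.412). The droplet protein gene Plin2 was at 0.53 (adjusted p = 0.0027).

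HDACs and their corepressors did not pass the fold limit in either direction, so 0 of 23 were called by limma. The analysis of variance of the methods was used with the same fold limit, so its 0 calls are no further support. At an unadjusted p under 0.05, 10 were higher and 3 lower, and the median was 0.14. At an adjusted p under 0.05 at any fold, 7 were higher (beside 12.8% of all probe sets) and 2 lower (beside 11.2%). The corepressor Sin3a had the largest difference, with 8.64, 8.52 and 8.56 in VPA64h arrays, against 7.80, 7.84 and 7.81 in Ctrl64h arrays (difference 0.76, adjusted p = 3.54e-06). Its arrays were apart in spite of the small change. Of 17 acetyltransferases and acetyl-lysine readers 1 fell, Kat2b (PCAF), with 6.22, 6.33 and 6.43 in VPA64h arrays, against 7.43, 7.42 and 7.17 in Ctrl64h arrays (difference -1.01, adjusted p = 0.000115). The change of Kat2b lay at the fold limit, at -0.96 without replicate 1 of VPA64h or of Ctrl64h and -0.97 without replicate 2 of Ctrl64h. Of 21 genes of DNA methylation and Polycomb 0 were called by limma. No member reached 2-fold, so the analysis of variance could call none either. At an unadjusted p under 0.05 by limma, 7 were higher and 2 lower.

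Histone probe sets gave falls and no rises by limma at 64 h. Of 15 linker and variant histone genes with a probe set of their own 2 fell (13.3%, beside 1.14% of all probe sets), the H2B gene H2bc4 (-1.07, adjusted p = 0.00029) and the macroH2A gene Macroh2a2 (-1.02, adjusted p = 0.00214). H2bc4 was at -0.87 without replicate 3 of VPA64h, and Macroh2a2 at -0.93 without replicate 1 of VPA64h, -0.95 without replicate 1 of Ctrl64h and -0.96 without its replicate 3. The replication-dependent H3 genes share 10 probe sets of 12 symbols each, which cannot be assigned to a gene. All 10 fell, with differences from -1.20 to -1.12. Of 13 probe sets shared by H4 genes 4 fell, with a range from -1.10 to -0.51. The 1 listed first under an H2A or H2B gene was at 0.04. Shared histone probe sets listed first under H2af-ps2, with 20 and 19 symbols, were at -0.40 (adjusted p = 0.00376) and -0.40 (adjusted p = 0.00581), under the fold limit. Of the 15 genes 6 passed an adjusted p of 0.05 downward and 1 upward at any fold, with a median of -0.14. At 4 h the effects ran from 0.53 to 0.68 for the H3 probe sets and from 0.00 to 0.51 for the H4 probe sets, and none of them was called.

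Inflammation genes had calls in 3 lists. Il6, the interleukin 6 gene, read 4.92, 4.95 and 4.09 in VPA64h arrays, against 6.88, 6.12 and 6.24 in Ctrl64h arrays (difference -1.76, SE 0.31, adjusted p = 0.000559). The chemokine gene Ccl9 read 6.58, 5.83 and 5.42 in VPA64h arrays, against 7.71, 6.67 and 6.63 in Ctrl64h arrays (difference -1.06, SE 0.26, adjusted p = 0.00766). Every VPA64h array of both genes was lower than every Ctrl64h array, by a small margin for Ccl9, which was at -0.80 without replicate 3 of VPA64h and -0.71 without replicate 1 of Ctrl64h. In the fit of the 6 arrays alone Ccl9 was at -1.06 with an adjusted p of 0.0529. They were the 2 of 33 chemokine and NF-kB genes that fell (6.06%, beside 1.14% of all probe sets), with a median of -0.12. Cfb, the factor B of complement, read 7.08, 6.98 and 6.55 in VPA64h arrays, against 9.40, 8.90 and 8.46 in Ctrl64h arrays (difference -2.05, SE 0.23, adjusted p = 1.2e-05), the one of 32 complement and coagulation genes that fell (3.12%), or of 2 without replicate 3 of VPA64h or replicate 2 of Ctrl64h. In the interferon and antigen presentation list of 29 genes the immunoproteasome subunit Psmb10 fell (-1.30, adjusted p = 6.67e-06) and the MHC class II chain H2-Ab1 rose (1.17, adjusted p = 0.000392), 3.45% of the list in each direction.

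Of 28 immediate early genes 2 rose (7.14%, beside 1.00% of all probe sets), and at any fold 8 passed an adjusted p of 0.05 upward and 4 downward. Egr1, a zinc finger transcription factor induced by growth factors, read 8.22, 8.29 and 8.66 in VPA64h arrays, against 7.05, 6.37 and 6.69 in Ctrl64h arrays (difference 1.69, SE 0.19, adjusted p = 1.16e-05). Its relative Egr2 read 6.89, 7.02 and 7.53 in VPA64h arrays, against 6.17, 5.71 and 6.11 in Ctrl64h arrays (difference 1.15, adjusted p = 0.000727). The groups were apart for both, and Egr2 was at 0.96 without replicate 3 of VPA64h. Among 30 stress response genes the inducible heat shock gene Hspa1a rose, with 8.26, 8.06 and 8.61 in VPA64h arrays, against 6.67, 7.38 and 7.11 in Ctrl64h arrays (difference 1.26, adjusted p = 5.4e-05). Herpud1, of endoplasmic reticulum associated degradation, fell, with 8.80, 8.92 and 8.70 in VPA64h arrays, against 10.03, 10.13 and 10.07 in Ctrl64h arrays (difference -1.27, adjusted p = 9.75e-08).

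In glycolysis the enolase isoforms moved apart. Eno2, the neuronal enolase, read 8.56, 8.44 and 8.69 in VPA64h arrays, against 7.53, 7.42 and 7.39 in Ctrl64h arrays (difference 1.11, adjusted p = 3.94e-05). Eno3, the muscle enolase, read 6.55, 6.87 and 6.70 in VPA64h arrays, against 8.50, 8.93 and 8.24 in Ctrl64h arrays (difference -1.85, adjusted p = 2.27e-07). The groups were apart for both genes in opposite directions. The glucose transporter gene Slc2a3 rose (1.23, adjusted p = 3.3e-07), and the median of the 33 genes was 0.13.

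In 5 metabolic lists limma called 0 genes, since no member reached 2-fold. The analysis of variance of the methods was used with the same fold limit, so it could call none either and is no further support. At an unadjusted p under 0.05, 11 genes were higher and 8 lower of 31 of fatty acid oxidation, 6 higher and 10 lower of 23 of cholesterol synthesis and uptake, and 10 higher and 2 lower of 31 of the respiratory chain. The same counts were 9 higher and 2 lower of 23 autophagy genes and 10 higher and 3 lower of 21 solute carriers. At an adjusted p under 0.05 at any fold, 8 fatty acid oxidation genes were higher and 6 lower. These counts were 5 and 7 for cholesterol, 3 and 1 for the respiratory chain, 7 and 1 for autophagy, and 10 and 3 for solute carriers. Of all probe sets 12.8% were higher and 11.2% lower at that limit. The largest differences in the 5 lists were those of the cholesterol exporter Abca1 (-0.96, adjusted p = 0.0012) and the glutamine transporter Slc38a1 (0.95, adjusted p = 2.6e-05). Leaving out replicate 3 of VPA64h or replicate 1 of Ctrl64h brought 1 cholesterol gene past the limits, and leaving out replicate 2 of VPA64h or replicate 1 of Ctrl64h 1 solute carrier. Of the 18 housekeeping genes Gusb fell (-1.06, adjusted p = 1.97e-07, or -0.99 without replicate 2 of VPA64h), and the median was 0.05.

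**Figure D4:**
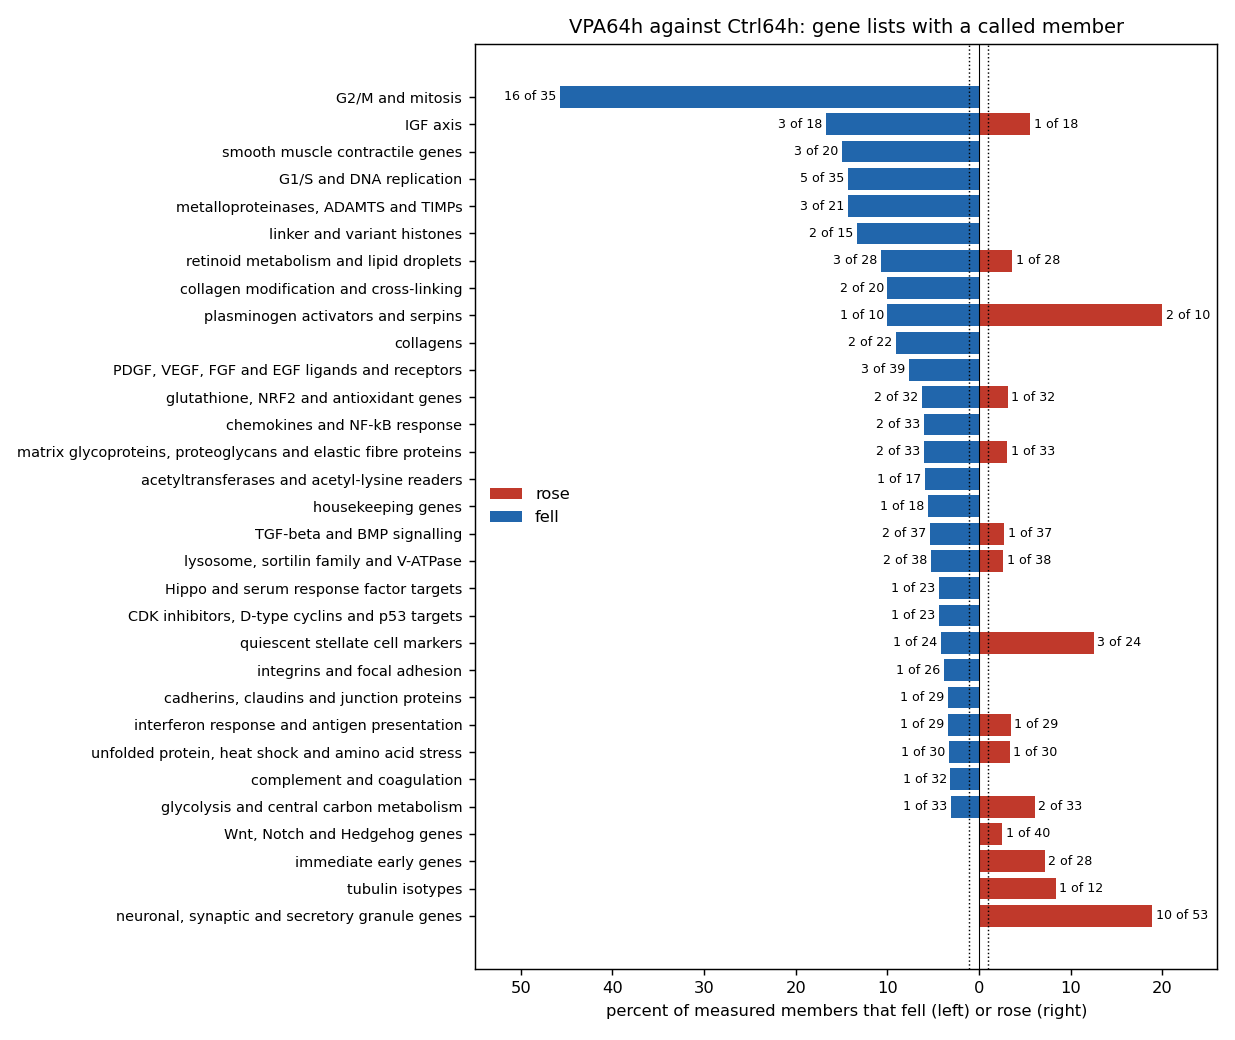
Percent of the measured members of each gene list that fell or rose with VPA at 64 h (x axis), with dotted lines at the percent of all probe sets that fell (1.14%) or rose (1.00%). Of the lists with a called member, G2/M and mitosis has the highest percent that fell, 45.7%. The highest percent that rose is that of plasminogen activators and serpins, 20% (2 of 10), and the neuronal list has 18.9% (10 of 53). Both lists hold genes that the study had already picked from these arrays.

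Marker genes of other cells moved with the treatment in a few cases. Cd34, a marker of portal and vascular cells, read 7.74, 7.75 and 8.65 in VPA64h arrays, against 6.45, 6.32 and 6.23 in Ctrl64h arrays (difference 1.71, adjusted p = 5.39e-06). Thy1, a marker of portal fibroblasts, read 8.23, 8.38 and 8.64 in VPA64h arrays, against 7.02, 7.01 and 7.12 in Ctrl64h arrays (difference 1.36, adjusted p = 1.56e-07). Both were higher in every VPA64h array, and replicate 3 was the highest. Among 16 markers of cholangiocytes, mesothelium and portal fibroblasts these 2 rose, and the mean of the 16 was 6.21 to 6.56 in VPA64h arrays and 6.10 to 6.33 in Ctrl64h arrays. The epithelial marker Epcam read 4.61, 5.03 and 4.76 in VPA64h arrays, against 4.77, 4.55 and 4.73 in Ctrl64h arrays, and the mesothelial Wt1 was at -0.31 (adjusted p = 0.0448). The part of these cells in the other changes was not tested. Of 20 endothelial markers Esam rose (1.03, adjusted p = 5.75e-07) and Emcn fell (-1.13, adjusted p = 2.61e-05). At an adjusted p under 0.05 at any fold, 7 were lower (beside 11.2% of all probe sets) and 2 higher (beside 12.8%). The median of the endothelial markers was -0.25. Esam was at 0.98 without replicate 3 of VPA64h and 1.00 without replicate 2 of Ctrl64h, just under the limit, and Emcn at -0.96 without replicate 1 of Ctrl64h. Without replicate 2 of VPA64h or replicate 3 of Ctrl64h 2 endothelial markers fell. Of 20 Kupffer cell, 19 hepatocyte and 14 lymphocyte markers 0 were called by limma. No member reached 2-fold, so the analysis of variance with the same fold limit could call none either. At an unadjusted p under 0.05, 4 Kupffer cell, 2 hepatocyte and 3 lymphocyte markers were lower and 1 lymphocyte marker higher. Without replicate 2 of VPA64h 1 hepatocyte marker fell. Alb, the albumin gene of hepatocytes, read 6.93, 7.83 and 6.89 in VPA64h arrays, against 7.37, 8.04 and 6.43 in Ctrl64h arrays, with overlapping groups.

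The change at 64 h was then set against that after 4 h of the same dose, on arrays that the 64 h comparison did not use. VPA4h had 203 probe sets up (0.867%) and 130 down (0.555%) against Ctrl4h, and 348 up and 66 down with arrays centred on the housekeeping genes. The shares of the 4 h lists below hold for the uncentred values. Of the 136 genes that rose at 64 h, 13 also rose at 4 h (9.56% of the 64 h list and 6.7% of the 194 genes that rose at 4 h). Of the 236 genes that fell at 64 h, 12 also fell at 4 h (5.08% of the 64 h list and 9.6% of the 125 genes of the 4 h list). No gene called at both times had opposite signs. At 4 h 111 of the 136 genes and 166 of the 236 genes had the sign of their 64 h effect. The share of all probe sets with each sign at 4 h was not counted, so nothing is concluded from these sign counts. The genes that rose at 64 h had a median effect of 1.22 at 64 h and 0.25 at 4 h. The genes that fell had a median effect of -1.29 at 64 h and -0.11 at 4 h, beside a median of -0.03 over all probe sets at 4 h.

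The difference of the effects (64 h minus 4 h) was itself tested in the same fit. It was called for 606 of the 23410 probe sets (2.59%), 209 higher at 64 h (0.893%) and 397 lower at 64 h (1.70%). Centred on the housekeeping genes, these counts were 147 higher and 503 lower. For the G2/M genes the median effect was -0.02 at 4 h, and the difference was called lower for 20 of 35. For the G1/S genes it was called lower for 17 of 35, and these genes had a median effect of 0.18 at 4 h, with 16 higher at an adjusted p under 0.05 and 2 that rose. For the neuronal genes it was called higher for 7 of 53 (median effect at 4 h -0.05), and for the contractile genes lower for 4 of 20 (median effect at 4 h -0.11). Igfbp3 read 8.97, 8.87 and 8.57 in VPA4h arrays, against 9.28, 8.96 and 8.81 in Ctrl4h arrays, a 4 h effect of -0.21, and its difference of effects was -3.47 (adjusted p = 2.69e-06). Uchl1 read 6.08, 6.48 and 6.26 in VPA4h arrays, against 6.52, 6.40 and 6.45 in Ctrl4h arrays, and its difference of effects was 2.26 (adjusted p = 2.63e-06). The groups overlapped at 4 h for both genes.

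A smaller set had moved by 4 h already. Il6 read 5.33, 5.21 and 6.0 in VPA4h arrays, against 7.93, 6.67 and 7.61 in Ctrl4h arrays (4 h effect -1.89, adjusted p = 0.000249), with a difference of effects of 0.12 (adjusted p = 0.903). Herpud1 had a 4 h effect of -1.39 and Tgfb1i1 one of -1.07, while Eno2 had 1.56 and Mapt 1.08. In each of these the VPA4h and Ctrl4h arrays did not overlap. Acta2 had a 4 h effect of -0.89 (adjusted p = 8.05e-05), and its effects at the times did not pass a test of their difference (-0.28, adjusted p = 0.369). The Acta2 level was lower with VPA at both times.

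**Figure D5:**
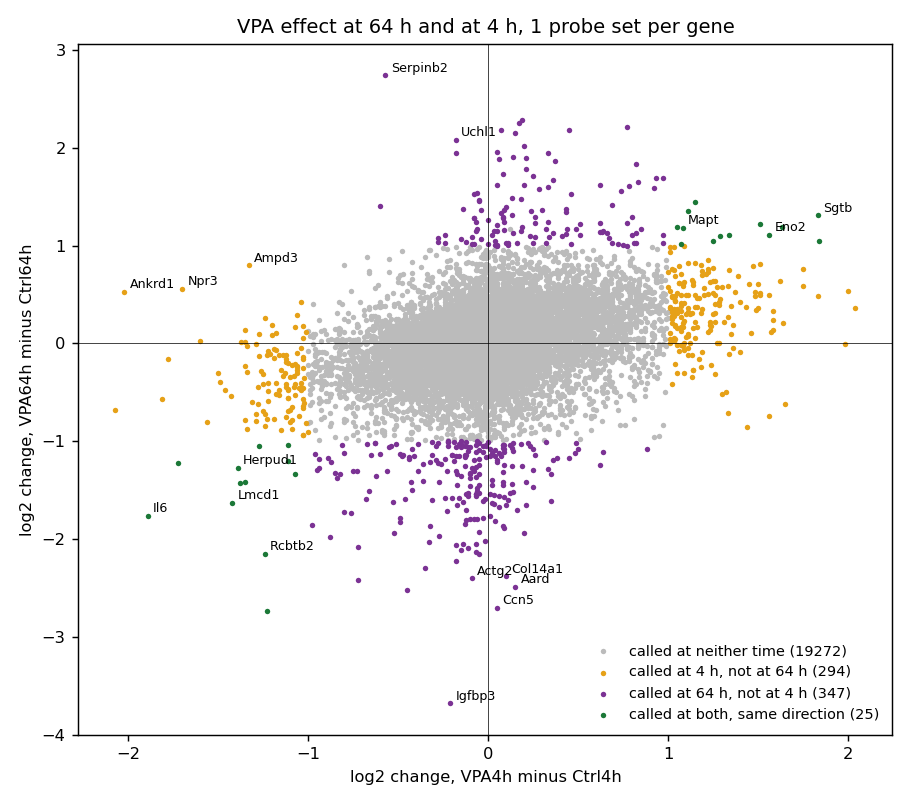
VPA effect at 64 h against VPA effect at 4 h (log2 differences), 1 point per gene read from a single-symbol probe set, coloured by whether the gene passed both limits at 64 h, at 4 h, at both (25 genes) or at neither. The 347 genes called at 64 h alone spread along the 64 h axis, and the median 4 h effect is 0.25 for all that rose at 64 h and -0.11 for all that fell.

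For the named genes the effect at 64 h can be set beside the change of untreated cells in culture, although these comparisons share arrays and are no test of each other. Relative to Ctrl4h, Igfbp3 was at -1.73 in VPA64h and 1.95 in Ctrl64h. Ccn5 was at 0.19 in VPA64h and 2.88 in Ctrl64h, Actg2 at 0.06 in VPA64h and 2.46 in Ctrl64h, and Myh11 at -0.12 in VPA64h and 2.10 in Ctrl64h. These 3 genes were thus within 0.19 of their early level in VPA64h. Acta2 was at 1.66 in VPA64h and 2.83 in Ctrl64h. Ccna2 stood at 0.17 in VPA64h and 2.22 in Ctrl64h, while Top2a stood at 1.03 in VPA64h and 2.70 in Ctrl64h. Col14a1 differed, with -2.38 in VPA64h and 0.00 in Ctrl64h. Among the rises Ntm was at -1.0 in VPA64h and -2.52 in Ctrl64h. Sort1 was at 2.09 in VPA64h and -0.16 in Ctrl64h, Gsta4 at 2.97 in VPA64h and 0.76 in Ctrl64h, and Serpini1 at 2.53 in VPA64h and 0.25 in Ctrl64h.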

How the data were processed

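RNA of cultured mouse HSCs was hybridised to Affymetrix Mouse Gene 1.0 ST arrays, 14 in all. The deposited table holds log2 values that the authors made by RMA (background correction, quantile normalisation and probe summarisation) in GeneSpring GX per the methods, while the processing notes name Affymetrix Expression Console. These log2 values were used as deposited, and no counts or depth exist for arrays. The table has 35557 probe sets, of which 23410 have at least 1 gene symbol in the platform annotation and were tested, 21789 have exactly 1 and 12147 have none. Every column was mapped to its sample by its accession.

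Group means were compared with limma 3.58.1 (R 4.3.3), in a cell-means fit over the 5 groups (residual degrees of freedom 9, prior 6.52), two-sided and with Benjamini-Hochberg adjustment. The limits, an adjusted p under 0.05 and 2-fold, are those of the methods. A gene with several single-symbol probe sets was read from the probe set whose mean across the 14 arrays was highest. The script was tested on simulated data. Arrays of a group are independent cultures per the methods. Whether each came from 1 mouse or several is not given in the sources used here, and p-values measure the spread between these arrays only. The labels number the replicates 1 to 3 in each group. Same-numbered VPA64h and Ctrl64h arrays deviated together from their group means (correlation 0.16, 0.16 and 0.17), as did those at 4 h (0.16, 0.28 and 0.14), so the replicate number was also fitted as a block.

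Named genes are the 15 largest rises and falls with non-overlapping groups (without clone names and pseudogenes), the 5 largest differences of effect in each direction, the genes the study names for its arrays, and up to 6 called members of each gene list, with others given where a list is described. The comparison and the gene lists were chosen with earlier results of these data known. Alternatives were another set of arrays, filter, centring, moderation, test or probe set rule, the block, and leaving out each array. Promoter windows are those of RefSeq (GRCm38.p6), taken by symbol, and an absent entry was not replaced.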

Additional observations from a re-analysis of the deposited data

Results flagged for a closer look

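The effect of VPA differed between the times for 209 probe sets that were higher and 397 that were lower at 64 h than at 4 h, by the limma test of the difference itself. Among the genes named by the rule, the largest positive differences of effect (64 h minus 4 h) were 3.31 for Serpinb2, 2.55 for Ankrd1, 2.26 for Uchl1, 2.26 for Npr3 and 2.12 for Ampd3. Ankrd1, a target of YAP and of serum response, read 12.46, 12.23 and 12.42 in VPA64h arrays, against 12.02, 11.52 and 11.98 in Ctrl64h arrays, and 9.81, 9.25 and 9.20 in VPA4h arrays, against 11.84, 11.30 and 11.19 in Ctrl4h arrays. Its VPA arrays were all higher than the controls at 64 h and all lower at 4 h. Npr3, the clearance receptor of natriuretic peptides, had an effect of 0.56 at 64 h (adjusted p = 0.137) and -1.70 at 4 h (adjusted p = 0.000126). Ampd3, an AMP deaminase, had 0.80 at 64 h (adjusted p = 0.00224) and -1.33 at 4 h (adjusted p = 2.19e-05). For Ankrd1, Npr3 and Ampd3 the 64 h effect alone did not pass both limits.

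The largest negative differences of effect were -3.47 for Igfbp3, -2.75 for Ccn5, -2.65 for Aard, -2.47 for Col14a1 and -2.31 for Actg2. In each the effect at 4 h was between -0.21 and 0.15.

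Outside the tested probe sets, those with no symbol in the annotation also changed: 155 rose (1.28%) and 28 fell (0.231%) of 12147 with VPA at 64 h. These probe sets were not named here.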

How the results depend on the processing

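No named gene changed direction under any alternative read gene by gene. The 136 genes that rose and 236 that fell had no opposite sign there. The balance of the counts did turn. More probe sets fell than rose in the main fit, but more rose than fell with housekeeping centring and with no fold limit. The same held with all probe sets tested (389 rose, 296 fell) and without replicate 2 of VPA64h (300 and 278). At 64 h, 234 probe sets rose and 268 fell. With the replicate block these were 235 and 268, and 235 and 268 with the block within time, which was chosen after seeing the data. Neither block changed a call of the 136 or 236 genes or any other listed count by over 1.5 times. The 6 arrays at 64 h alone gave 235 and 266, the methods' analysis of variance 234 and 265, and trended robust moderation 234 and 268. That analysis of variance was run here on the deposited values. The study reports far larger sets of genes that rose or fell with VPA, so its published counts were not reproduced. The cause of this gap was not tested. Only probe sets with a mean above the 25th percentile gave 225 and 247, only those with 1 symbol 164 and 244, and centring on the array median 218 and 285. Testing also the probe sets with no symbol raised the number that rose to 389, since more probe sets were tested. Centred on the housekeeping genes, which moves the median of all probe sets by 0.07, 287 rose and 218 fell at 64 h, 348 rose and 66 fell at 4 h, and 3 G1/S genes fell. With that centring 192 of the 236 genes that fell and all 136 that rose kept their call at 64 h. The named genes that lost it were Aldh1a2, Ccl9, Cdc45, Gusb, Kat2b, Macroh2a2 and Pole. With no fold limit 2993 were higher and 2628 lower at 64 h, 2689 and 2331 at 4 h, and the difference of effects was called higher for 1764 and lower for 1949.

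Without 1 array the number that rose at 64 h ranged from 160 (without replicate 2 of Ctrl64h) to 300 (without replicate 2 of VPA64h), and the number that fell from 255 to 278. At 4 h the ranges were 197 to 220 up and 113 to 176 down, and for the difference of effects 171 to 277 higher and 387 to 419 lower. The members that fell were 16 to 19 for G2/M, 3 (without replicate 1 of Ctrl64h) to 6 for G1/S and 3 to 4 for the contractile genes, and 10 neuronal genes rose each time. Among the named genes 39 of 1628 values under alternatives fell under a limit. For all other listed counts, 45 of 1496 moved by over 1.5 times, most of them lists with 1 to 3 calls. The cause of these shifts was not tested. Signal over background was not used here, so no limit of detection was set.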

Other observations

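The list of 52 measured genes of ciliary transport and the ciliary transition zone was chosen after the values had been seen. Of these 7 rose (13.5%, beside 1.00% of all probe sets) and 31 were higher at an adjusted p under 0.05 at any fold (beside 12.8% of all), with a median of 0.35. Tmem231, of the transition zone, read 8.20, 8.21 and 8.08 in VPA64h arrays, against 6.61, 6.85 and 6.82 in Ctrl64h arrays (difference 1.41, adjusted p = 6.51e-08). Cep290, a centrosomal protein of the same zone, read 6.33, 6.15 and 6.31 in VPA64h arrays, against 4.89, 4.99 and 5.09 in Ctrl64h arrays (difference 1.28, adjusted p = 5.19e-07). The groups did not overlap for either gene. The others that rose were Ahi1 (1.14), Ift80 (1.13), Ttc26 (1.12), Wdr35 (1.03) and Bbs9 (1.01), and Wdr35 was at 0.96 without replicate 3 of VPA64h and 0.98 without replicate 2 of Ctrl64h.

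Small heat shock protein genes, a list of 10 also chosen after the values had been seen, had 3 that fell, Hspb6 (-1.54), Hspb2 (-1.14) and Hspb7 (-1.14). Hspb6, the Hsp20 of smooth muscle, read 6.54, 6.60 and 6.68 in VPA64h arrays, against 8.18, 8.21 and 8.08 in Ctrl64h arrays (adjusted p = 1.9e-07). Its groups were far apart, and the median of the list was -0.11.

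Of the 234 probe sets that rose 71 carry several symbols, and 24 of these belong to Snord116 small nucleolar RNA genes and 33 to Ssty, Sly or Gm genes of the Y chromosome. The 19 single-symbol probe sets of Srsy genes all rose. These families have near-identical copies, so their probe sets are no independent genes.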
